A study of Arabidopsis thaliana with 12 samples.

Results

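The pseudo-response regulators (PRRs) PRR9, PRR7, PRR5, PRR3 and TOC1 are the 5 genes described here, taken by locus from the 4 deposited tables of genes that the authors called between light regimes. Of the 5 genes, 3 were listed in at least 1 table, out of 6520 distinct loci listed in the series. RNA-seq of polyadenylated transcripts had been made from leaves of well-watered Arabidopsis thaliana plants, accession Col-0 (Columbia, the accession of the reference genome). The 12 libraries comprised 3 for each of 4 regimes: square light of high (SQH) and low (SQL) intensity, in which the lamp stays at a single level all day, and fluctuating light of high (FLH) and low (FLL) intensity, which follows a natural course of light. Leaves were harvested in a single short window around midday according to the study, so the levels below are those of a single time of day. Under DNA extraction the study gives a fixed harvest order, SQH, SQL, FLH and FLL, over several days of growth. The fluctuating regimes also had a gradual dawn and dusk, which the square regimes lacked. The study matched the daily sum of light between the 2 patterns at each intensity, while fluctuating light was strongest around midday. Light at the moment of harvest may thus have differed between patterns of the same intensity. The part of harvest order, of dawn and dusk or of light at harvest in the listings was not tested. All plants shared the genotype and no transgene or mutant was involved. The recorded growth temperature was 22 °C for all 12 libraries. In the study this value belongs to the stage before the regimes, with other day and night temperatures under the lamps. Plants spent weeks under their regime before harvest, with the same day length in all 4. The libraries are separate replicates per regime according to the study.

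PRR proteins are transcriptional repressors of the plant circadian clock. Each carries a receiver-like domain that resembles that of phosphorelay response regulators but lacks the aspartate that is phosphorylated there, and a CCT motif, through which the proteins contact DNA. Their transcripts peak one after another through the day, with PRR9 first after dawn, PRR7 and PRR5 later and TOC1 towards dusk. In the morning loop they repress CCA1 and LHY, the MYB-type factors that in turn repress evening genes such as TOC1 through the evening element. PRR3 is known to protect TOC1 from the F-box protein ZTL, which marks TOC1 for degradation.

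The tables give for each listed gene the authors' mean normalised count, which is the mean over libraries of counts divided by a size factor per library. They also hold the authors' fold changes and p-values, which are the authors' own tests and were not used. Which comparison lists a gene is therefore given below, while the direction and the size of its change are not. No value per library was used, so no spread between replicates and no depth per library stands beside a level. A gene that a table does not list did not pass the authors' thresholds there, which does not show that it was unchanged.

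Upstream sequence is shown for the 3 listed genes, because clock proteins are known to bind sites in sequence of this kind. The lines below give the 250 bases before the annotated start of each gene in TAIR10.1, 5′ to 3′ on the strand of the gene. Capitals mark exact matches to the G-box CACGTG, a site of PIF-type and other bHLH and bZIP factors, and to the evening element AAAATATCT or its reverse complement.
PRR9: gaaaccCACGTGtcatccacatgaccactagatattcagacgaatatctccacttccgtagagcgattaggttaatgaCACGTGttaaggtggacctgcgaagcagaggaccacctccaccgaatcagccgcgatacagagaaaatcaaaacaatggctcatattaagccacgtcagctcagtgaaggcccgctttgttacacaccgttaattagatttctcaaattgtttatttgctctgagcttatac
PRR7: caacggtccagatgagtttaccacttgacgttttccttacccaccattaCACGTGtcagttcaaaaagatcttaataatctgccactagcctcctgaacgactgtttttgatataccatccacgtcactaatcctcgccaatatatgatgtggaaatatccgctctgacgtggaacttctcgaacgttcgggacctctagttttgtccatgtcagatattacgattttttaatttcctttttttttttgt
TOC1: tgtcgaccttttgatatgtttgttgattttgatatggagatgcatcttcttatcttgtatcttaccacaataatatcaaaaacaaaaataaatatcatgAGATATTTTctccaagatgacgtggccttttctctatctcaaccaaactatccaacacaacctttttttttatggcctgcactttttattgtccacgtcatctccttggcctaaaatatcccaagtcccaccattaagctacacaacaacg

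The PRR9 sequence lies at chr2:19232357-19232606 on the plus strand, that of PRR7 at chr5:642031-642280 on the minus strand and that of TOC1 at chr5:24674713-24674962 on the plus strand. PRR9 had 2 G-boxes, the first from 244 to 239 and the second from 172 to 167 bases before the start. PRR7 had 1 G-box, from 201 to 196 bases before the start. TOC1 had no G-box but 1 evening element, from 151 to 143 bases before the start and on the opposite strand. Searched on both strands, the G-box occurred in 6.49% and the evening element in 2.36% of 27443 promoters of the same length. The CCA1-binding site AAAAATCT, found in 6.69% of these promoters, matched none of the 3 windows. PRR9 and TOC1, which the same tables listed, thus differed in exact matches to these full motifs in this window. The letters AGATATT within the TOC1 match also occur in the PRR9 and PRR7 windows printed above. Shorter forms of the motifs were not searched, and their share of all promoters was not counted. A match describes letters and not a bound site.

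**Figure D1:**
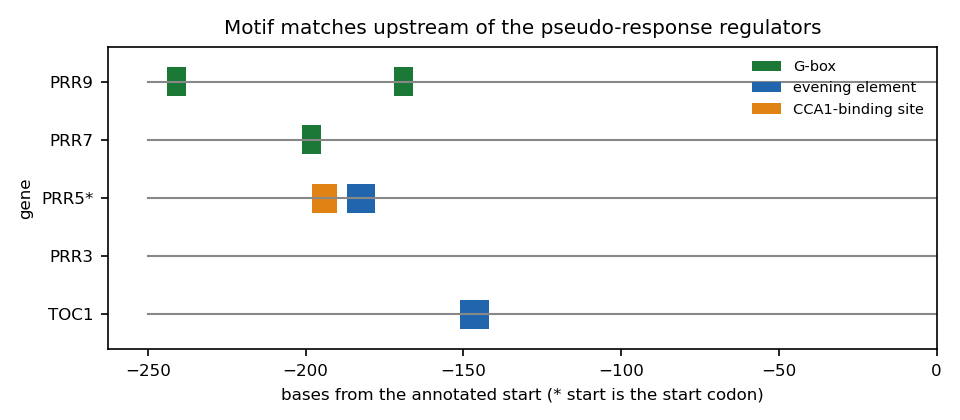
Exact motif matches in the 250 bases before the annotated start of the 5 PRR genes, with distance from the start in bases on the horizontal axis and 1 line per gene. PRR9 shows 2 G-boxes, PRR7 shows 1, TOC1 and PRR5 each show 1 evening element, PRR5 also shows 1 CCA1-binding site, and PRR3 shows no match; the PRR5 gene model begins at its start codon, so its window covers leader sequence.

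To ask which changes of regime moved the PRR transcripts past the authors' thresholds, the 4 comparisons were read in turn. PRR9, PRR7 and TOC1 were listed between SQH and FLH, which differ in light pattern at high intensity, so 3 of 5 genes were listed where 16.4% of the 27562 annotated protein-coding genes were. Between FLH and FLL, which differ in intensity under fluctuating light, PRR9 and TOC1 were listed, 2 of 5 genes against 7.32% of annotated genes. No PRR gene was listed between SQH and SQL, where 2.35% of annotated genes were, or between SQL and FLL, where 5.88% were. Not every annotated gene is expressed in leaves or was tested, so these shares may understate the shares of tested genes. The 2 comparisons that list PRR9 and TOC1 share the FLH libraries and are not independent. In the alignment statistics of the study the FLL libraries stand apart from those of FLH. The FLL libraries enter both the FLH and FLL and the SQL and FLL comparison, and the part of this in either was not tested.

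**Figure D2:**
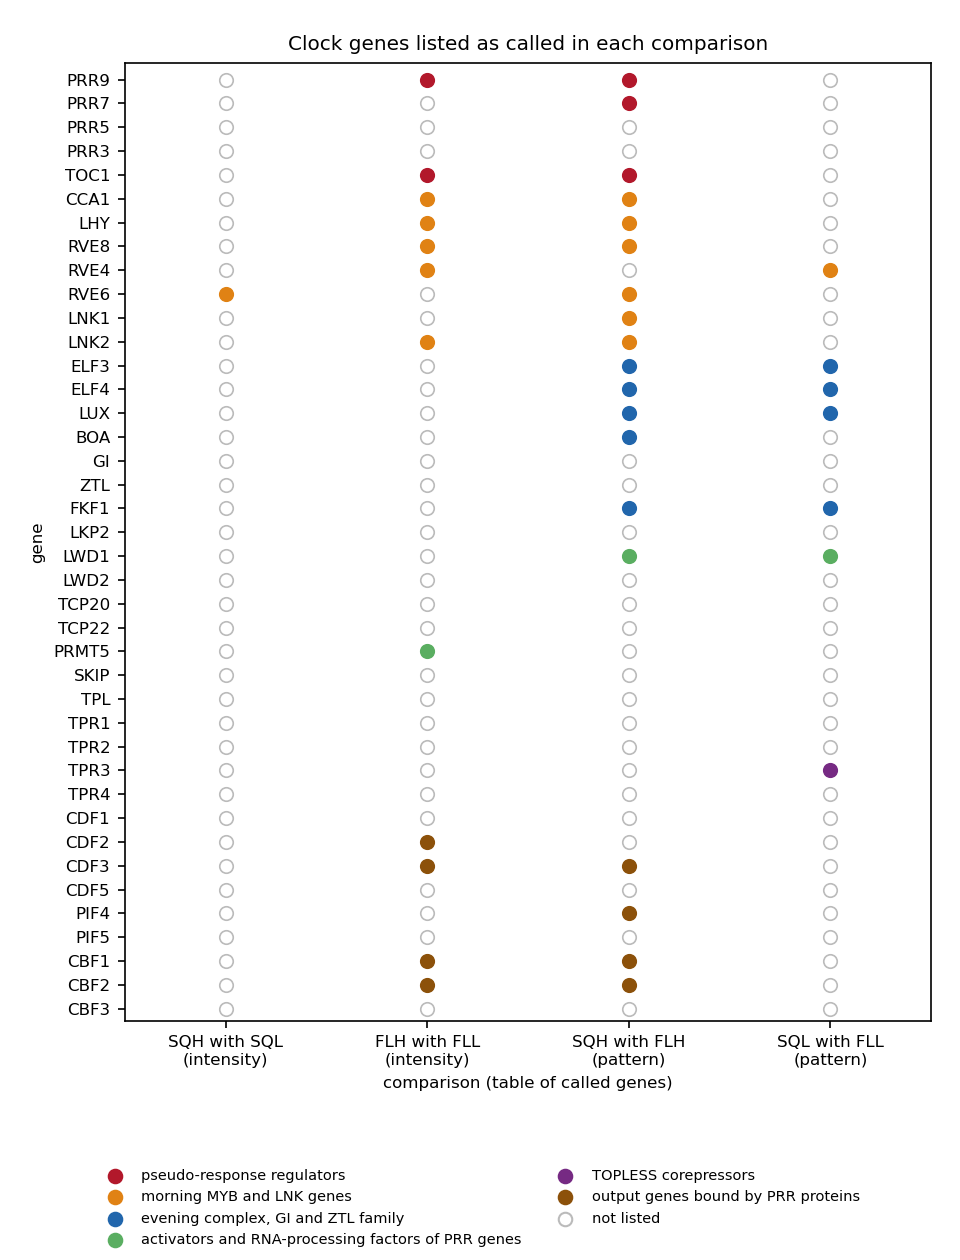
Genes of the clock lists (rows) in the 4 tables of called genes (columns), with a filled point where the table lists the gene and an open point where it does not. PRR9 and TOC1 are filled for FLH with FLL and for SQH with FLH, PRR7 for SQH with FLH alone, and PRR5 and PRR3 in no column.

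PRR9 (AT2G46790), the morning member, is on chromosome 2 from 19232607 to 19235179 in TAIR10.1 and has 5 annotated transcripts. Its mean over all libraries, as given by the authors, was 2405 normalised counts, or 1176 per kilobase of its longest transcript of 2045 bases. This level per kilobase was above that of 80.6% of the listed loci, whose median was 305 per kilobase. The source of PRR9 reads is partly uncertain, because chromosome 2 also holds AT2G46670, a CCT motif gene, from 19164357 to 19165233. Of the 877 bases of AT2G46670, 842 (96.0%) lay in stretches of at least 31 bases identical to PRR9, and these cover 32.7% of the PRR9 gene. AT2G46670 was not listed in any table. How reads that fit both loci were counted is not given in the sources used here.

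PRR7 (AT5G02810), which acts with PRR9 in repressing CCA1 and LHY, is on chromosome 5 from 637681 to 642030. At this midday harvest it had the highest level of the listed members, with an authors' mean of 8223 normalised counts, or 2544 per kilobase of a transcript of 3232 bases. That was above 91.3% of the listed loci, and 2.16 times the level of PRR9 and 4.66 times that of TOC1 per kilobase. PRR7 was listed between SQH and FLH but not between FLH and FLL, where PRR9 and TOC1 were listed. A difference in response between PRR7 and the other members was not tested.

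TOC1 (AT5G61380), the dusk member that represses CCA1 and LHY at night, is on chromosome 5 from 24674963 to 24678550 and has 1 annotated transcript of 2808 bases. It had an authors' mean of 1534 normalised counts, or 546 per kilobase, above 64.5% of the listed loci. Among the listed members TOC1 thus had the lowest mean level at midday, and PRR9 had 2.15 times its level per kilobase. These means average regimes between which the authors called both genes different, and no error can be put on the ratios. Ratios that involve PRR9 also carry the uncertainty about its reads given above.

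PRR5 (AT5G24470), on chromosome 5 from 8356204 to 8358546, and PRR3 (AT5G60100), on chromosome 5 from 24197971 to 24201415, were not listed in any of the 4 tables. No level is therefore given for them. The annotated PRR5 model has equal transcript and coding lengths of 1677 bases and so holds no leader. No annotated gene overlapped any of the 5 PRR genes.

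The genes that act around the PRRs were read from the same tables. Of 7 morning genes of the MYB and LNK families, 6 were listed between SQH and FLH, where 16.4% of annotated genes were, and 5 between FLH and FLL, where 7.32% were. Between SQL and FLL (5.88% of annotated genes) and between SQH and SQL (2.35%) 1 morning gene each was listed. The 7 morning genes include CCA1 and LHY, the targets of PRR repression, and RVE8, an activator of PRR5 and TOC1. CCA1, LHY and RVE8 were each in the same 2 tables as PRR9 and TOC1. LNK2, a coactivator that binds RVE8, was also in these 2 tables, and its partner LNK1 was with PRR7 in the SQH and FLH table alone. RVE4, a relative of RVE8, was listed between FLH and FLL and between SQL and FLL, and was the only morning gene missing from the SQH and FLH table. RVE6, another relative, was in the SQH and FLH table and was the only gene of these lists in the SQH and SQL table.

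Of 8 genes of the evening complex, GI and the ZTL family, 5 were listed between SQH and FLH, where 16.4% of annotated genes were. Between SQL and FLL (5.88% of annotated genes) 4 were listed. Between FLH and FLL (7.32%) and between SQH and SQL (2.35%) 0 were listed. The 5 included BOA, which had an authors' mean of only 35.7 normalised counts. ELF3, ELF4 and LUX, which form the evening complex that represses PRR9, and FKF1, an F-box relative of ZTL, were listed in both pattern comparisons. ZTL, GI and LKP2, whose proteins act on the stability of TOC1 and PRR5 or resemble those that do, were not listed in any table. Annotated genes overlap LUX over 1507 bases and BOA over 1896 bases, which leaves the source of their reads uncertain. Shorter overlaps, over 359 bases of LNK2, 245 of LNK1, 207 of ELF3, 315 of TPR3, 25 of PRMT5 and 21 of FKF1, leave the same doubt about part of their reads, as the strandedness of the counting is not known here.

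Of 6 activators and RNA-processing factors of PRR genes, LWD1, which promotes PRR9 transcription, was listed in both pattern comparisons (16.4% and 5.88% of annotated genes). PRMT5, needed for correct PRR9 splicing, was listed between FLH and FLL (7.32%). Of 5 TOPLESS corepressors, which PRR proteins recruit, TPR3 alone was listed, between SQL and FLL, where 5.88% of annotated genes were. Of 9 output genes bound by PRR proteins, 4 were listed between SQH and FLH (16.4% of annotated genes) and 4 between FLH and FLL (7.32%). Between SQL and FLL (5.88%) and between SQH and SQL (2.35%) 0 were listed. CDF3, a repressor of flowering genes, and the cold-response factors CBF1 and CBF2 were in the same 2 tables as PRR9 and TOC1, and PIF4, a growth-promoting bHLH factor, was in the SQH and FLH table with PRR7. CBF1 and CBF2 had authors' means of only 68.2 and 87.2 normalised counts. Over these 35 genes other than the PRRs, 16 were listed between SQH and FLH, 10 between FLH and FLL, 7 between SQL and FLL and 1 between SQH and SQL, beside 16.4%, 7.32%, 5.88% and 2.35% of annotated genes in the same order. Being in the same tables as PRR9 and TOC1 is shared by 962 loci in all, and being in the SQH and FLH table alone by 2681 loci.

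Ranked by the authors' mean per kilobase of transcript, PRR7 had rank 5, PRR9 rank 10 and TOC1 rank 11 of the 23 listed genes of these lists. LNK2, which overlaps other genes in part, had the highest value at 9759 per kilobase, followed by CCA1 at 4712, while BOA had the lowest at 12.3. The evening complex genes ELF4, ELF3 and LUX lay below TOC1, at 364, 360 and 243 per kilobase. Of 5 leaf marker genes of photosynthesis and photorespiration, 4 were listed, and RCA, LHCB1.1, CA1 and GLDP1 had levels from 29943 to 253048 per kilobase, above at least 99.5% of the listed loci. Another gene overlaps 343 bases of CA1, and RBCS1A was not listed.

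**Figure D3:**
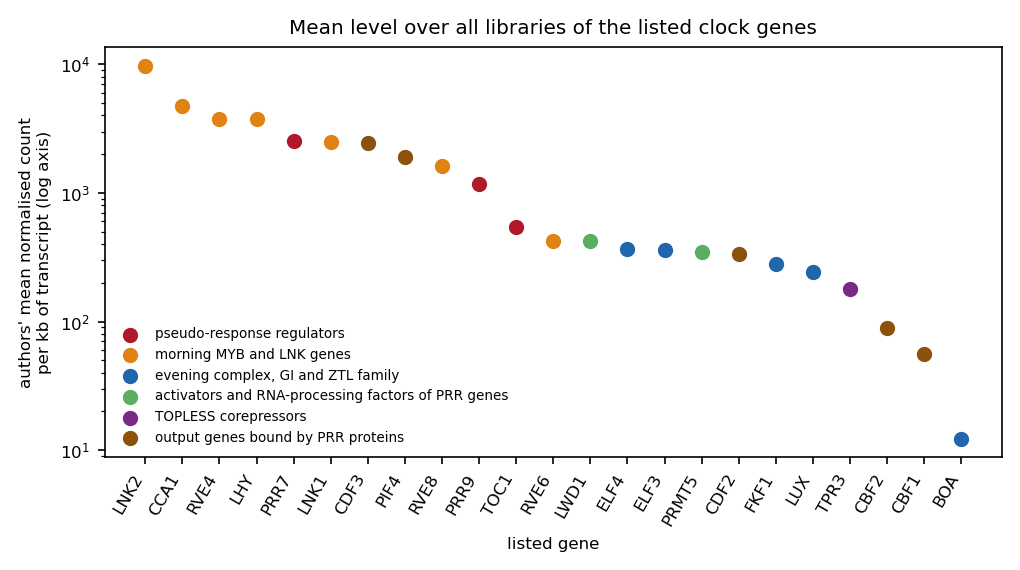
The authors' mean normalised count per kilobase of the longest transcript (log axis) for the 23 listed genes of the clock lists, in falling order, 1 point per gene with no error because each is a mean over all libraries. PRR7 sits at 2544, PRR9 at 1176 and TOC1 at 546, below CCA1 at 4712 and above ELF4 at 364.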

How the data were processed

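RNA was extracted by the authors from 3 replicates per regime, and polyadenylated transcripts were sequenced as paired reads. Reads were aligned to TAIR10 with HISAT2. The submitters' processing notes also name SAMtools, featureCounts and DESeq2, without versions, and neither the strandedness nor the handling of multiply aligned reads is given in the sources used here. The deposited value used, a signal, is the mean over libraries of counts divided by size factors. Each table lists genes with an adjusted p of at most 0.05 and a log2 fold change of at least 0.5 per the study's methods. The other 5 columns per table hold the authors' log2 fold changes, SEs, Wald statistics, p-values and adjusted p-values, and were not used. All 2303 loci in more than 1 table had the same mean in each (relative tolerance 1e-06), and 1 row that repeats an identifier was set aside.

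No test was run, since no value per library was used. Depth per library enters the levels only through the authors' size factors and was not examined, and the SD between replicates is not analysed here. The part of depth in the listings was not tested. Loci were matched to TAIR10.1, which had a record for 6511 of 6520. Levels were divided by the longest annotated transcript, available for 6510 loci. The background was the share of 27562 annotated protein-coding genes in each table. Motifs were searched in the 250 bases before each annotated start, with Python 3.11.15 and pandas 2.3.3, and the search was tested on simulated sequences. The 5 members, and the 7 lists of 45 loci to which the named genes belong, were chosen with earlier results of these data known. Alternatives were minimum mean normalised counts of 10, 100 and 1000, all annotated genes as denominator and coding length. The others were percentiles among all loci in any table that listed the gene, and a search of the gene strand alone. The planned comparison of protein sequences was not run.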

Additional observations from a re-analysis of the deposited data

How the results depend on the processing

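The counts of listed PRR genes were the same with a minimum mean normalised count of 10, 100 or 1000. A minimum of 10 changed no list count. A minimum of 100 left 4 of the evening genes between SQH and FLH, where BOA fell out. It left 2 of the output genes between FLH and FLL and 2 between SQH and FLH, where CBF1 and CBF2 fell out. A minimum of 1000 left 1 and 2 of these output genes, and 5 morning genes between SQH and FLH, where RVE6 fell out. It left 0 genes in each of 7 list counts. These were morning genes between SQH and SQL, and evening genes between SQH and FLH and between SQL and FLL. The others were factors of PRR genes in each of their 3 comparisons, and TOPLESS corepressors between SQL and FLL. With all 38094 annotated genes as denominator, the listed shares were 12.1% between SQH and FLH, 5.41% between FLH and FLL, 4.48% between SQL and FLL and 1.75% between SQH and SQL. Per kilobase of coding sequence the levels were 1709 for PRR9, 3765 for PRR7 and 826 for TOC1, in the same order. Among all loci in any table that listed the gene, PRR7 was above 92% of loci, PRR9 above 80.2% and TOC1 above 63.8%. On the gene strand alone there were 0 evening elements in TOC1 and in PRR5 and 0 CCA1-binding sites in PRR5. No paired analysis was possible because the tables carry no value per replicate, and for the same reason no replicate could be left out. Depth limits cannot be stated without counts per library.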
